A study of Saccharomyces cerevisiae with 6 samples.

Results

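The expression state of budding yeast was examined 2 h after the essential gene YPI1 was shut off. The comparison held every gene with a log2 ratio on both arrays of that time, which came to 4119 of the 6212 identifiers on the array. Cells of strain MMR09-4, a CML476 derivative in which a KanMX4-tetO7 cassette stands directly before the YPI1 coding region, were grown in YPD, a rich glucose medium. One culture received 100 µg/ml doxycycline in ethanol and water for 2 h, and the other received the same ethanol and water without the drug. The series holds the same comparison at 4 h and 6 h, in all 6 arrays of 6 RNA samples. Both cultures carried the tetO7 cassette, so untreated cells were no measure of native YPI1 expression. A strain whose YPI1 promoter is intact was not compared, and the ratios include whatever the drug does by itself.

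At 2 h there was 1 RNA pair, hybridised on 2 arrays with the dyes swapped. The arrays are technical repeats, so no p-value can be given for any gene at this time, and every value below is a description of that RNA pair. Values are log2 ratios of doxycycline-treated over untreated cells, and a mean is followed by the SD of its 2 arrays. The labels place treated RNA in the first channel of every array. The log base is not given in the sources used here, and folds assume log2. Replicate 1, with doxycycline in Cy5, had values for 4686 genes, and replicate 2, with doxycycline in Cy3, for 4287. The labels name Cy3 for both channels of replicate 2, which was taken as the dye swap that the design text describes. The spread between arrays, not a count of reads, limits the precision here.

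Ypi1 binds and regulates Glc7, which is the catalytic subunit of protein phosphatase 1 in budding yeast. Targeting subunits lead Glc7 to glycogen synthase, to the glucose repression machinery, to the bud neck and to the chromosomes, where it opposes the Aurora kinase Ipl1. Ypi1 acts together with Sds22 on the nuclear pool of Glc7. The tetO7 promoter is driven by a tetracycline-controlled activator that lets go of its operators when doxycycline is present, so transcription of the gene behind it stops. The title of the series places the work in the passage of cells through mitosis.

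YPI1 (YFR003C, chromosome VI) was the gene with the lowest ratio at 2 h. Its log2 ratio was −4.06 on replicate 1 and −4.73 on replicate 2, a mean of −4.39 ± 0.48 or 21.0-fold lower in treated cells. The arrays of 4 h had −5.32 and −5.64, and those of 6 h −6.44 and −6.17. Both 2 h arrays thus lay above all 4 later arrays, and the ranges of the 3 times did not overlap. Relative to matched genes, meaning the median over the 20 genes of chromosome VI closest to it in length, YPI1 stood at −4.04 and −4.65.

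CDC26 (YFR036W), a small subunit of the anaphase-promoting complex, the ubiquitin ligase that marks securin and mitotic cyclins for destruction, was the other gene that lay far from 0. It had −1.89 on replicate 1 and −1.92 on replicate 2, a mean of −1.90 ± 0.02 or 3.73-fold lower. The arrays of 4 h had −1.94 and −2.25, and those of 6 h −3.17 and −2.86, so the 2 h values lay close to those of 4 h and above those of 6 h. Relative to matched genes it had −1.84 on both arrays. YPI1 and CDC26 were 2 of 4119 genes, or 0.0486%, whose mean was at least 1 in size with 1 sign on both arrays. No gene passed this limit on the higher side.

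**Figure D1:**
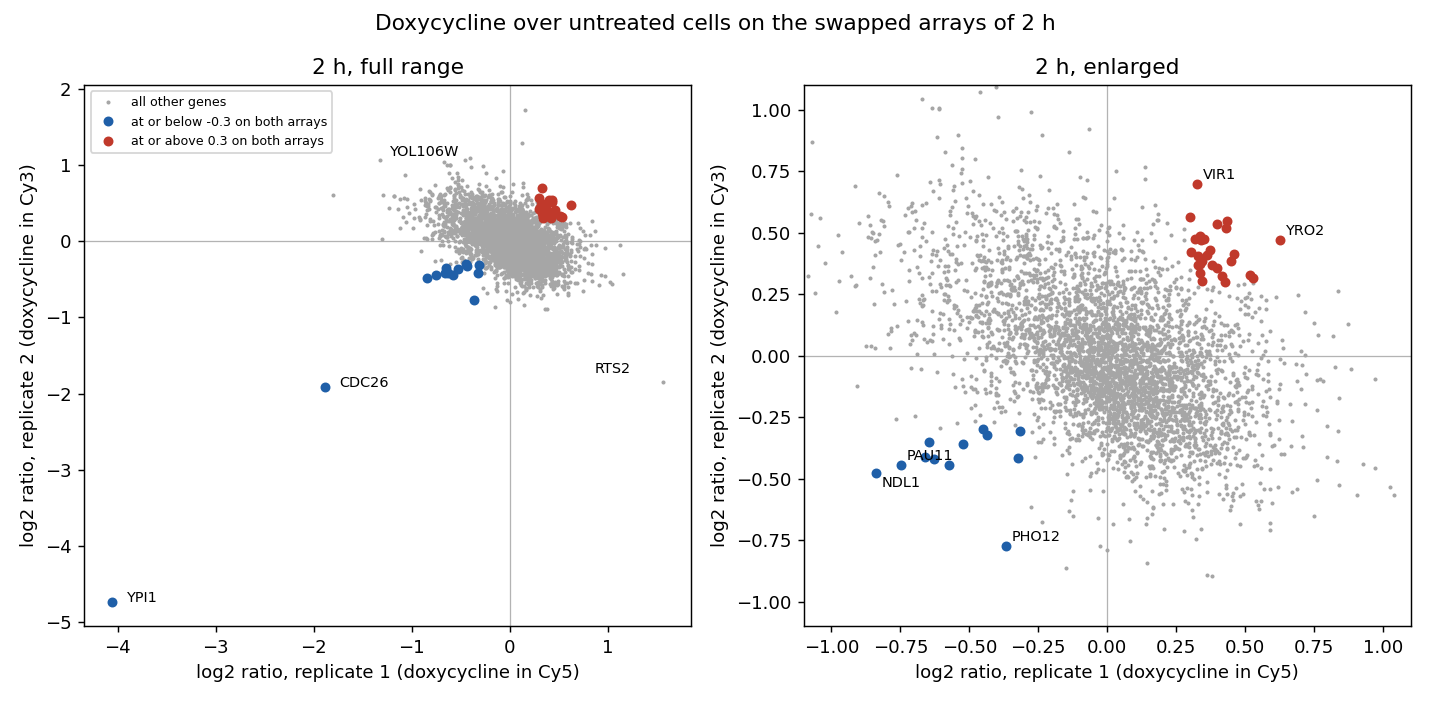
Log2 ratio of doxycycline-treated over untreated cells at 2 h on replicate 1 (x axis) against replicate 2 (y axis), 1 point per gene, over the full range on the left and enlarged on the right. YPI1 and CDC26 lie apart at the lower left, 14 genes in blue lie at or below −0.3 on both arrays, 27 in red lie at or above 0.3, and the cloud of other genes runs from upper left to lower right.

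CDC26 lies on the same arm of chromosome VI as YPI1, with 37 annotated protein-coding genes between them in the R64 reference annotation. Of these, 27 had a value on both arrays, and their median log2 ratio was 0.04, from −0.25 for SMC2, a condensin subunit, to 0.27 for ECO1, the cohesin acetyltransferase. In 20 of the 27 the arrays had opposite signs, in 6 both were above 0, and in 1 both were below 0. That gene was YFH7, singled out after its values were seen, at −0.01 and −0.10. The genes beside YPI1 were NIC96, a nuclear pore subunit, at −0.16 and 0.21, and RPN11, the deubiquitinase of the proteasome lid, at −0.30 and 0.40. Neither lay on 1 side of 0. On the YPI1 side of CDC26 the annotated neighbour YFR035W-A had no value here, and the next gene with values, YFR035C (also chosen after seeing values), had −0.38 and 0.50. RSC8, a chromatin remodelling subunit on the far side, had 0.13 on replicate 1 and no value on replicate 2. PHO4, the activator of the phosphate regulon, which lies a few genes before CDC26, had 0.13 and 0.11 and was also named after its values were seen. The low ratios of YPI1 and CDC26 were thus not shared by the genes measured between or beside them. How CDC26 came to be low was not tested.

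**Figure D2:**
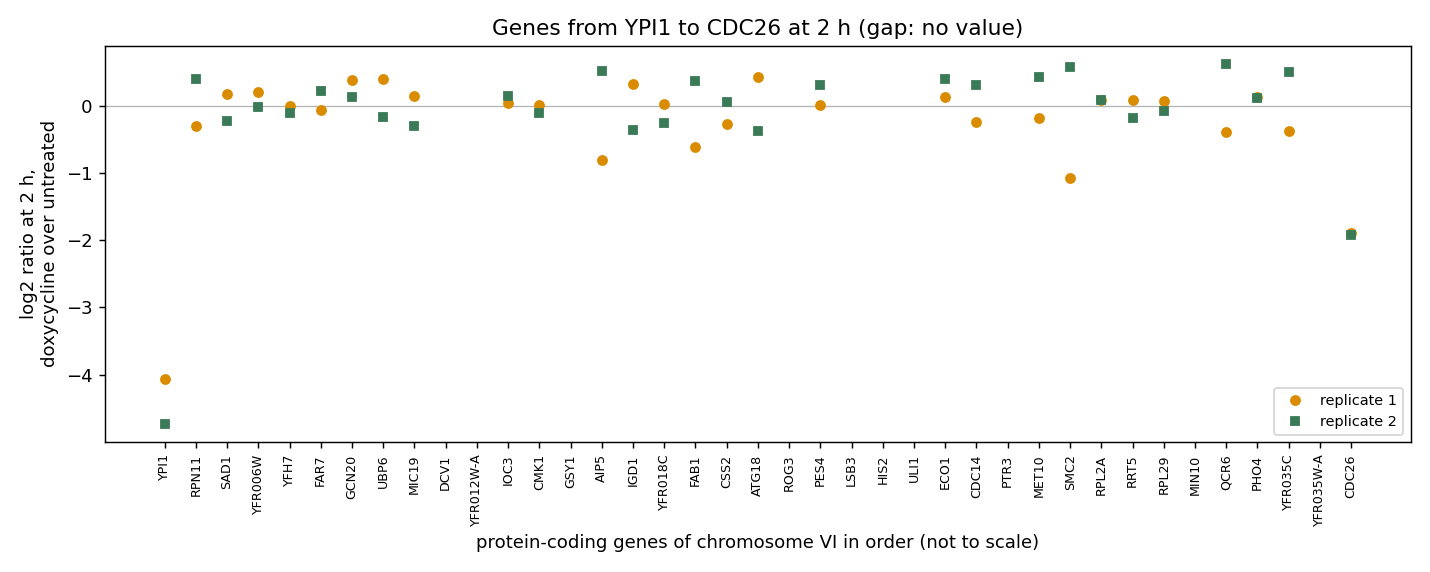
Log2 ratio at 2 h for each protein-coding gene from YPI1 to CDC26 in chromosomal order (x axis, not to scale), with circles for replicate 1 and squares for replicate 2, and no mark where an array had no value. YPI1 at the left end and CDC26 at the right end have both marks far below 0, while the median of the 27 genes measured on both arrays between them is 0.04.

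Apart from these genes the arrays disagreed more than they shared. Across the 4119 genes, which share an RNA pair and are not independent, replicate 1 and replicate 2 correlated with Pearson r = −0.40 and Spearman rho = −0.47. Without YPI1 and CDC26 the Pearson value was −0.49. The arrays had opposite signs for 2739 genes (66.5%), were both below 0 for 673 (16.3%) and both above 0 for 691 (16.8%). These shares are the background against which each group of genes below is read. The swapped arrays of 6 h correlated with r = 0.87 and those of 4 h with −0.17. Without YPI1 and CDC26 these values were 0.87 and −0.34. The 2 h means had an SD over genes of 0.147 without YPI1 and CDC26, with quartiles at −0.09 and 0.09, against SDs of 0.135 at 4 h and 0.749 at 6 h.

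The disagreement itself recurred at later times. The swap difference of a gene is taken here as its value with doxycycline in Cy5 minus its value with doxycycline in Cy3, divided by 2, so that a difference between cultures cancels and a preference for a dye does not. At 2 h its SD over genes was 0.25 without YPI1 and CDC26, larger than that of the mean. Across genes it correlated with the swap difference of 4 h at r = 0.57 over 3856 genes and with that of 6 h at r = 0.71 over 3453 genes. The times had separate RNA and shared probes and dyes. What made the swap difference recur was not tested. RTS2, a basic DNA-binding protein gene, was the extreme case with 1.57 and −1.84 at 2 h and 1.87 and −1.72 at 4 h. YOL106W, an identifier with no match in the reference annotation, had −1.32 and 1.07. No difference between cultures can be read from either gene.

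**Figure D3:**
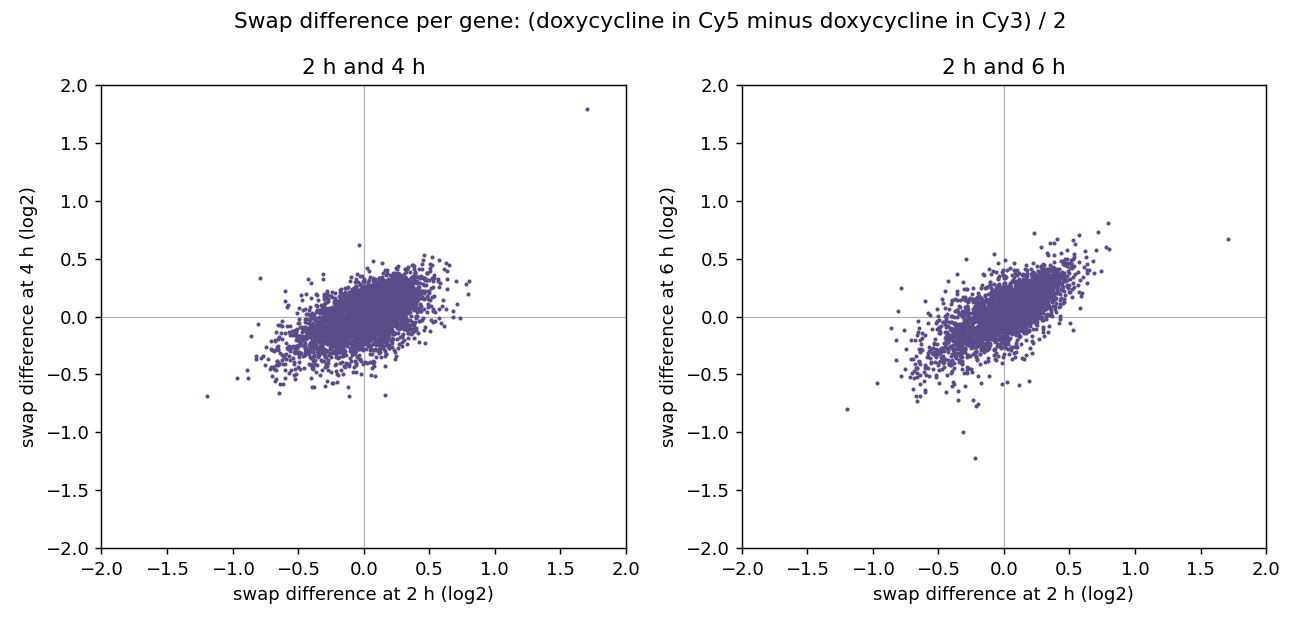
Swap difference of each gene (value with doxycycline in Cy5 minus value with doxycycline in Cy3, divided by 2, log2 scale) at 2 h (x axis) against 4 h (left) and 6 h (right). Both clouds run from lower left to upper right, with r = 0.57 for 4 h and 0.71 for 6 h, and the isolated point at the far right is RTS2.

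In a step added after the data were seen, the mean swap difference of 4 h and 6 h was subtracted from replicate 1 and added to replicate 2. Where only 1 later time had both arrays, the swap difference of that time alone was used. The step covered 3918 genes, of which 3391 had values on all 6 arrays. The arrays then correlated with r = −0.07 and Spearman rho = −0.18. Without YPI1 and CDC26 the Pearson value was −0.19, so part of the disagreement remained. YPI1 then had −4.21 and −4.58 and CDC26 −2.04 and −1.76. The number of genes past 0.3 in size with opposite signs was 443 (10.8%) in the values as deposited, 180 of them (4.37%) with replicate 1 the higher array and 263 (6.39%) with replicate 2 the higher, and it was 112 (2.86%) after the subtraction. Swap-corrected array medians are given below for each list whose arrays changed sign under this step.

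The other parts of the protein phosphatase 1 machinery lay near 0. GLC7 itself had 0.08 on replicate 1 and 0.34 on replicate 2, a mean of 0.21 ± 0.19, and SDS22, the leucine-rich repeat subunit that binds Glc7 together with Ypi1, had 0.02 and 0.26. Both genes were above 0 on both arrays, and their array values differed by more than the distance of the lower one from 0. Of 15 measured members of the list of Glc7 and its regulators, 3 were above 0 on both arrays and 3 below, beside 16.8% and 16.3% of all genes. The list median was −0.03, beside −0.008 for all genes. GIP3, a Glc7-interacting protein, was the member below 0 by most after YPI1, at −0.65 and −0.35. It had −0.24 and −0.23 at 4 h and, on the other side of 0, 0.36 and 0.73 at 6 h. SCD5, which brings Glc7 to sites of endocytosis, had 0.16 on both arrays, and SLA1, an actin patch protein, had −0.13 and −0.09. REG1, the subunit that directs Glc7 to glucose repression, had −0.46 and 0.38, so its sign is undefined.

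Related phosphatases gave the same picture. None of 16 measured members was above 0 on both arrays, and 3 were below (18.8%, beside 16.3% of all genes), namely PPH3 of the protein phosphatase 4 complex at −0.12 and −0.06, SIT4 at −0.14 and −0.05 and PPH22, a catalytic subunit of protein phosphatase 2A, at −0.01 and −0.06. The means of all 3 lay within the quartiles of all genes. PPZ1, which Ypi1 was also reported to bind in vitro, had −0.04 and 0.03. CDC14, the mitotic exit phosphatase, had −0.24 and 0.31, with replicate 2 the higher as for many genes. The median of the list was −0.02.

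Within the anaphase-promoting complex and spindle checkpoint list CDC26 stood alone. Of 17 measured members, 5 were above 0 on both arrays (29.4%, beside 16.8% of all genes) and 3 below (17.6%, beside 16.3%). The arrays had opposite signs in 9, and the list median was 0.01. CDC16, a scaffold subunit of the complex that Cdc26 helps to assemble, had 0.54 and 0.18, a mean of 0.36 ± 0.26. SWM1, another small subunit, had 0.12 and 0.26, and DOC1, which helps substrates to bind, had 0.11 on both arrays. These subunits, picked by the array value nearer 0, were on the side opposite to CDC26. Of other subunits APC11 had 0.006 and 0.022, and APC5 had −0.20 and 0.26. The activator CDC20 had −0.01 and 0.28, its partner CDH1 0.03 and −0.004, and securin, PDS1, had −0.09 and −0.04, all of them small beside CDC26. CDC26 was the 1 member past 0.3 on both arrays in either direction.

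Kinetochore and spindle genes were spread evenly around 0. The 30 measured members had a median of −0.01. Of these 4 were above 0 on both arrays (13.3%) and 5 below (16.7%), beside 16.8% and 16.3% of all genes. The highest by the array value nearer 0 were SPC105, which docks Glc7 at the kinetochore, at 0.10 and 0.28, SPC19 of the DASH ring at 0.26 and 0.07, SPC98 of the gamma-tubulin complex at 0.06 and 0.26 and SLI15, the partner of Ipl1, at 0.05 and 0.26. IPL1, the Aurora kinase that Glc7 opposes, had −0.02 and −0.06. No member reached 0.3 on both arrays.

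Lists of transcripts that mark a phase of the cell cycle had small positive medians of the 2 h mean. In the M/G1 and histone lists the array medians had opposite signs. Relative to matched genes the medians were 0.03 for the G2/M, 0.04 for the G1/S, 0.02 for the M/G1 and 0.05 for the histone genes. The G2/M genes of the CLB2 cluster had a median of 0.06 over 28 measured members, with array medians of 0.08 and 0.06. In this list 8 members were above 0 on both arrays (28.6%, beside 16.8% of all genes) and 2 were below (7.14%, beside 16.3%). CLB2, the main mitotic cyclin, had 0.18 and 0.46, and ALK1, a haspin-like kinase, had 0.56 and 0.14, with means of 0.32 ± 0.20 and 0.35 ± 0.30. SRC1, an inner nuclear membrane protein, was below 0 at −0.21 and −0.10. At 4 h CLB2 had −0.05 and 0.04, and at 6 h it had 0.77 and 1.03. The higher value of CLB2 at 2 h was thus not present at 4 h.

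G1/S genes, which prepare DNA replication, had a median of 0.09 over 33 measured members, with array medians of 0.00 and 0.06. Most of them, 26, had opposite signs on the arrays. PRI2 of primase had 0.18 and 0.61, while POL30, the replication clamp, had −0.21 on both arrays and the S-phase cyclin CLB5 −0.12 and −0.10. Members of the same list therefore lay on both sides of 0. The M/G1 list had a median of 0.03 over 22 members, with array medians of 0.17 and −0.0035. MCM2 of the replicative helicase had 0.43 and 0.30, and MCM7 had 0.30 and 0.14. The 9 measured histone genes had a median of 0.01 and array medians of 0.06 and −0.17, with HTB1 at −0.04 and −0.17. In a culture of mixed phases fewer cells in a phase and less RNA per cell cannot be told apart.

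On the lower side 14 genes (0.34%) were at or below −0.3 on both arrays, against 443 genes (10.8%) that passed 0.3 with opposite signs. The order below follows the array value nearer 0. NDL1, a NudE-type regulator of dynein, which moves the nucleus toward the bud, had −0.84 and −0.48, a mean of −0.66 ± 0.26. PAU11, of the seripauperin family, whose members the probes may not tell apart, had −0.75 and −0.45. These were the lowest after YPI1 and CDC26, at a distance of more than 1 log2 unit from CDC26. YKR075C, a gene of unknown role, had −0.57 and −0.44. GSC2, also called FKS2, the stress-induced catalytic subunit of glucan synthase, had −0.63 and −0.42, and SNZ1, of vitamin B6 synthesis, −0.66 and −0.41. PHO12, a secreted acid phosphatase, had −0.37 and −0.77, and PHO11, nearly identical in sequence, had −0.15 and −0.86, so the probes may not tell them apart. NBP1, needed to duplicate the spindle pole body, had −0.52 and −0.36.

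The remaining genes at or below −0.3 were close to that limit on at least 1 array. They were GIP3, PYC1, a pyruvate carboxylase, at −0.44 and −0.32, NHP6A, a chromatin protein of the HMG type, at −0.33 and −0.42, AAC1, a mitochondrial ADP/ATP carrier, at −0.45 and −0.30, and PKR1, an assembly factor of the vacuolar proton pump, at −0.32 and −0.31. Of the 14 genes, 10 stayed at or below −0.3 on both arrays with the swap difference of the later times subtracted, all but GIP3, NHP6A, AAC1 and PKR1, where 20 of 3918 genes (0.51%) met that limit in all. Relative to matched genes 7 stayed, again beside 20 of 3918 genes (0.51%), namely YPI1, CDC26, NDL1, PHO12, SNZ1, YKR075C and PKR1. YPI1, CDC26, NDL1, PHO12, SNZ1 and YKR075C met the limit under both. The 14 were picked on these same arrays, and the subtraction leaves the mean of each gene unchanged. Neither share is therefore a separate check of these genes.

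The later arrays split the 14 lower genes. All had both values at 4 h and at 6 h. At 4 h 7 were below 0 on both arrays and 3 above, beside 17.5% and 18.1% of all genes, with a median of −0.21. At 6 h 8 were below and 5 above, beside 48.3% and 39.4% of all genes. YPI1, CDC26, PAU11, SNZ1 and PHO12 were below 0 on all 6 arrays, 5 of 14, while 33 of 575 genes (5.74%) below 0 on both 2 h arrays were so on all 6. The 14 were picked for low 2 h values, so this share is a description. SNZ1 kept a narrow range, with −0.64 and −0.62 at 4 h and −0.44 and −0.45 at 6 h. PAU11 had −0.55 and −0.54, then −0.85 and −0.62. YKR075C, by contrast, had 0.26 and 0.16 at 4 h and 0.10 and 0.08 at 6 h, and GSC2 had 0.88 and 0.58 at 6 h.

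On the higher side 27 genes (0.655%) were at or above 0.3 on both arrays, and none had an array mean above 0.55. YRO2, a membrane protein of the Hsp30 family, led with 0.63 and 0.47, a mean of 0.55 ± 0.11. PBY1, a putative tubulin tyrosine ligase found with P-bodies, had 0.44 and 0.55, and KEL2, a kelch-repeat protein of polarised growth, 0.43 and 0.52. YBR225W, of unknown role, had 0.46 and 0.41, and TCM62, a mitochondrial chaperone for succinate dehydrogenase, 0.40 and 0.54. All 5 had 1 array above 0.45.

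The rest of the 12 highest genes by the array value nearer 0 are given next, and no role shared by them was tested. ACS2, the acetyl-CoA synthetase used on glucose, had 0.45 and 0.38. LCB5, a kinase of sphingoid bases, had 0.36 and 0.41, and LAM5, a sterol transfer protein, 0.35 and 0.47. RGD2, a GTPase-activating protein for Cdc42 and Rho5, had 0.37 and 0.43. MDM10, which ties mitochondria to the endoplasmic reticulum, had 0.40 and 0.36. The methionine permease MUP3 had 0.38 and 0.37, and the iron transporter FET4 had 0.34 and 0.38. The other 15 of the 27 were FAT1, UBP3, STB5, RRN6, APL6, FET5, GPI16, VIR1, NOP1, VID27, DDL1, UFD2, SEY1, FBP26 and MCM2, with means from 0.32 for UFD2 to 0.51 for VIR1.

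With the swap difference subtracted, 14 of the 24 higher genes that have one stayed at or above 0.3 on both arrays, where 24 of 3918 genes (0.613%) did so in all. These genes were picked on the same arrays, and the subtraction leaves each mean unchanged, so this share is a description and no separate check. Only 14 of the 27 had values on all 6 arrays, so for the others of the 24 the swap difference came from 1 later time. The 27 higher genes were also alike in length. Their median span was 2145 bp in the R64 annotation, from 984 to 2886 bp, and 18 of them (66.7%) were between 2000 and 3000 bp, beside 12.7% of all genes with a length. Genes of that length as a whole, 496 in number, had a median log2 ratio of 0.09 at 2 h, with 0.06 on replicate 1 and 0.09 on replicate 2. The 353 genes of 3000 bp or more had a median of −0.10, with −0.40 and 0.21 on the arrays, and none of the 27 was among them. The 351 genes under 500 bp had a median of −0.05, with 0.01 and −0.10 on the arrays, and they held 5 of the 14 lower genes. Relative to matched genes 10 of 3918 genes (0.255%) were at or above 0.3 on both arrays and 20 (0.51%) at or below −0.3. Of the 27, only YRO2, ACS2, LCB5 and NOP1 were among the 10. The part of gene length in the other 23 was not tested.

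At the later times the 27 did not move as 1 group. Of 24 with both arrays at 4 h, 4 were above 0 on both and 10 below, beside 18.1% and 17.5% of all genes, with a median of −0.15. Of 14 with both arrays at 6 h, 12 were above 0 and 1 below, beside 39.4% and 48.3% of all genes, with a median of 0.76. The 496 genes of 2000 to 3000 bp had medians of −0.07 at 4 h and 0.83 at 6 h, the same signs as the 27. LCB5 was the exception below 0 at 6 h, with −0.97 and −1.18. NOP1, the fibrillarin of ribosomal RNA processing, was the 1 gene of the 14 above 0 on all 6 arrays, with 0.42 and 0.32 at 2 h. Its 4 h values were 0.36 and 0.03, and its 6 h values 0.04 and 0.40. Of 557 genes above 0 on both 2 h arrays with values on all 6, 34 (6.10%) were above 0 on all 6.

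**Figure D4:**
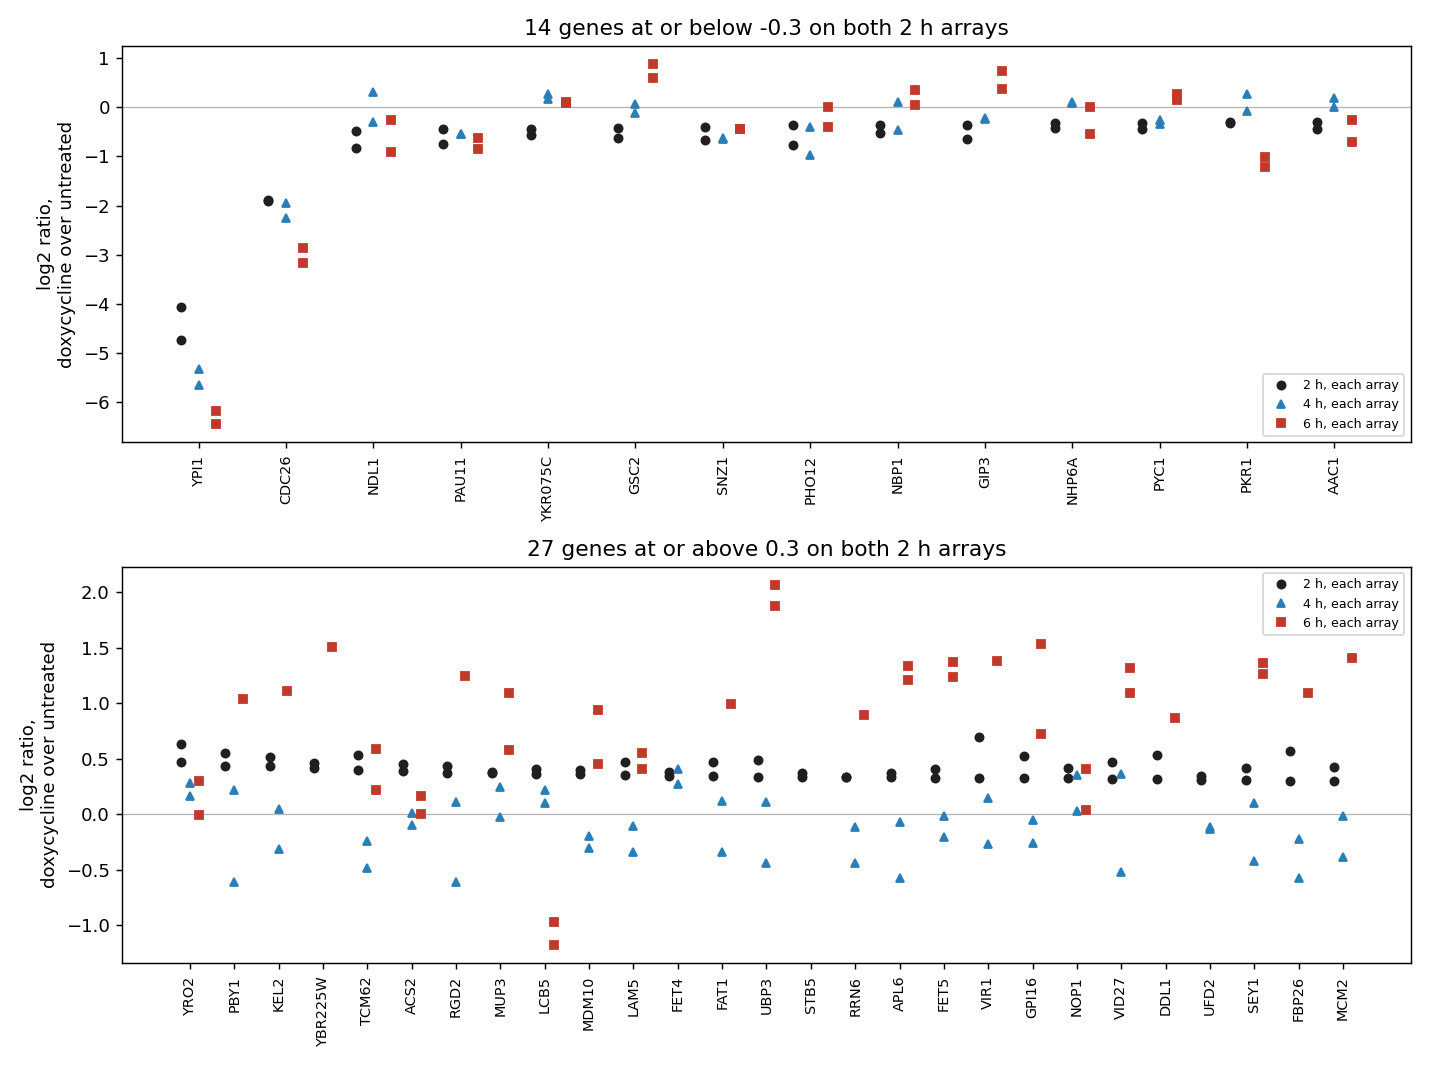
Log2 ratio on each array at 2 h (black circles), 4 h (blue triangles) and 6 h (red squares) for the 14 genes at or below −0.3 on both 2 h arrays (top) and the 27 genes at or above 0.3 (bottom). YPI1 and CDC26 stay far below 0 at every time, most of the higher genes have 4 h values around or below 0, and the 6 h values of LCB5 are −0.97 and −1.18.

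Phosphate genes leaned to the lower side. The PHO regulon, which takes up, frees and stores phosphate, had a median of −0.04 over 23 measured members, with array medians of 0.01 and −0.27. In this list 8 members were below 0 on both arrays (34.8%, beside 16.3% of all genes) and 3 were above (13.0%, beside 16.8%). PHO80, the cyclin that keeps the pathway off in phosphate-rich medium, had −0.54 and −0.28, and VTC3, of the polyphosphate polymerase, −0.48 and −0.27. PHO2, a co-activator of the regulon, was above 0 at 0.23 and 0.17. The polyphosphate genes did not lie together, as VTC2 had 0.01 and 0.52, the highest mean of the list, and VTC5 had −0.08 and 0.27. Of the other acid phosphatases PHO5 had 0.10 and −0.32 and PHO3 0.28 and −0.35, so only PHO11 and PHO12 of these 4 were below 0 on both arrays. VTC3 had −0.83 and −0.73 at 4 h, while PHO80 had 0.18 and −0.12. The swap-corrected array medians of the list were −0.07 and −0.04. PHO84, the main transporter of the regulon, had no value at 2 h and was at −2.04 and −1.92 at 4 h.

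Glycogen and trehalose genes, which build and break the reserve carbohydrates, had the highest median of the 30 lists at 0.15, over 13 measured members. The array medians were 0.27 and 0.09, and 0.14 and 0.15 with the swap difference subtracted. In this list 4 members were above 0 on both arrays (30.8%) and none below, beside 16.8% and 16.3% of all genes. They were GLC3, the glycogen branching enzyme, at 0.52 and 0.25, PGM2, phosphoglucomutase, at 0.26 and 0.12, UGP1, which makes UDP-glucose, at 0.38 and 0.09, and NTH1, a trehalase, at 0.27 and 0.07. Replicate 1 was the higher array in all 4. Neither synthesis nor breakdown was singled out, as GLC3 builds glycogen and NTH1 breaks trehalose. GSY2, the main glycogen synthase and a substrate of Glc7, had −0.17 and 0.54, and GLG1, a glycogen primer, −0.68 and 0.44. Relative to matched genes the list median was 0.10, the largest in size of the 30.

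General stress genes under Msn2 and Msn4 had a median of 0.09 over 43 measured members, and 0.09 relative to matched genes. The list shares GLC3, PGM2, NTH1, GSY2, GPH1, GDB1, TPS1, TPS2 and TSL1 with the glycogen and trehalose list, so the lists are not separate observations. In this list 12 members were above 0 on both arrays (27.9%) and 5 below (11.6%), beside 16.8% and 16.3% of all genes. YRO2 and GLC3 led, followed by RCK2, a kinase of the osmotic stress response, at 0.24 and 0.30 and the small heat shock protein HSP26 at 0.17 and 0.30. HSP12, a membrane-stabilising protein and a standard reporter of this response, lay on the other side at −0.13 and −0.58. It was also below 0 on the 4 later arrays, with −0.16 and −0.43 at 4 h and −0.50 and −0.39 at 6 h. The list therefore held members on both sides. Heat shock proteins and chaperones had a median of 0.03, with 3 of 24 members above 0 on both arrays and 3 below (12.5% each). SSA4, an inducible Hsp70, had 0.12 and 0.60.

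Genes of sugar use were split. Hexose uptake and phosphorylation had a median of 0.02 over 17 members. Of these 3 were above 0 on both arrays (17.6%) and 5 below (29.4%), beside 16.8% and 16.3% of all genes. SNF3, a sensor of low glucose, had −0.25 and −0.29, and HXK1, the hexokinase that glucose represses, 0.47 and 0.12. Glycolysis and fermentation genes had the widest gap between arrays of all lists, with medians of 0.23 and −0.31 and opposite signs in 22 of 25 members. With the swap difference subtracted the medians were 0.01 and −0.06. The TCA cycle and respiratory chain list had a median of 0.05 over 31 members. In it 5 members were above 0 on both arrays and 5 below (16.1% each), near the shares of all genes. Among those below were the isocitrate dehydrogenase subunits, IDH1 at −0.33 and −0.28 and IDH2 at −0.10 and −0.34.

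Cell wall genes divided in the same way. Of 37 measured members of the cell wall integrity list 8 were above 0 on both arrays (21.6%) and 10 below (27.0%). All genes had 16.8% and 16.3%, and the list median was −0.02. GSC2 was the lowest, and SLT2, the kinase of the relay, had 0.10 and 0.25. WSC3, a wall sensor, had −0.14 and −0.37, and PIR3, a wall glycoprotein, 0.33 and 0.14. The calcineurin and calcium list, which shares GSC2, had a median of 0.02 over 18 members. Its next member was PMA1, the plasma membrane proton pump, at 0.87 and 0.13, where replicate 1 carries the mean.

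Lists of nutrient supply had medians between −0.02 and 0.06. Sulfate assimilation and methionine genes had array medians of 0.10 and 0.09. In this list 5 of 18 members were above 0 on both arrays (27.8%) and none below, beside 16.8% and 16.3% of all genes. The median of this list was 0.06, and 0.02 relative to matched genes. MUP3, the ATP sulfurylase MET3 at 0.27 and 0.32 and MET30, the ubiquitin ligase subunit that restrains the pathway, at 0.29 and 0.19 were its leading members. Purine synthesis had 7 of 20 above 0 on both arrays (35.0%) and 3 below (15.0%), led by ADE17 at 0.75 and 0.13, with array medians of 0.15 and −0.05. Iron, zinc and copper genes had 7 of 28 above and 2 below (7.14%), FET4 and FET5 among those above and HMX1, heme oxygenase, at −0.70 and −0.25. Amino acid biosynthesis had a median of 0.01 over 49 members, with LEU1 at 0.50 and 0.24. LYS1, of lysine synthesis, had 0.16 on replicate 1 and 1.73 on replicate 2, so its mean of 0.94 ± 1.11 rests on 1 array. Vitamin B6 and thiamine genes had a median of −0.02, with SNO1, the partner of SNZ1, at −0.06 and −0.55.

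Ergosterol synthesis genes had a median of 0.06 over 19 members and array medians of 0.24 and −0.19, and ERG12, mevalonate kinase, had −0.08 and −0.13. Drug efflux genes had a median of −0.01 over 17 members, with the pump PDR5 at −0.16 and −0.17 and PDR12 at 0.20 and 0.35. Mating genes had a median of −0.0045 over 21 members, with the G protein GPA1 at 0.12 and 0.17. As deposited none of these 3 lists had both array medians on 1 side of 0, while the swap-corrected array medians of the mating list were 0.03 and 0.08.

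Ribosomal protein genes were among the lists whose arrays lay furthest apart. The large-subunit genes had a median of −0.08 over 67 measured members, with array medians of 0.08 and −0.22, and the small-subunit genes −0.04 over 51, with 0.16 and −0.26. With the swap difference subtracted both arrays lay below 0, with medians of −0.11 and −0.01 for the large-subunit and −0.13 and −0.03 for the small-subunit genes. As deposited only 13 large-subunit genes and 9 small-subunit genes had 1 sign on both arrays. Of these 10 and 6 were below 0, which is 14.9% and 11.8% of the measured genes, beside 16.3% of all genes. RPL31A at −0.18 and −0.20 and RPS7B at −0.20 and −0.27 were among them. RPL6B was above 0 at 0.22 and 0.35. Relative to matched genes the medians were −0.03 and −0.02, and most of these genes have a near-identical copy that probes may not separate. Ribosome biogenesis genes had a median of −0.03 over 79 members, with 6 above 0 on both arrays (7.59%) and 15 below (19.0%), NHP2, of the H/ACA particles, at −0.23 and −0.34 and NOP1 on the other side. Mitochondrial ribosomal proteins had −0.03 over 59 members, with MRP20 at −0.19 and −0.23. Proteasome genes had 8 of 33 above 0 on both arrays (24.2%) and 1 below (3.03%), beside 16.8% and 16.3% of all genes. NPL4, the Cdc48 adaptor, had 0.39 and 0.17, and the array medians of the list were 0.09 and 0.01.

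Over the 30 lists the medians at 2 h ran from −0.08 for large-subunit ribosomal proteins to 0.15 for glycogen and trehalose, with −0.008 for all genes. The array medians had opposite signs in 22 lists, were both above 0 in 6 and both below 0 in 2. With the swap difference subtracted they were both above 0 in 11 lists and both below 0 in 6. As given above, the phosphate and cytosolic ribosomal protein lists came to lie below 0 on both arrays and the mating list above 0. Others that came to lie above 0 on both were the general stress genes at 0.07 and 0.05 and the iron, zinc and copper genes at 0.07 on both. So did the M/G1 genes at 0.04 and 0.08 and the TCA cycle genes at 0.007 and 0.05. Others that came to lie below 0 on both were ribosome biogenesis at −0.03 and −0.02, mitochondrial ribosomal proteins at −0.008 and −0.009 and histones at −0.002 and −0.03. The kinetochore list, below 0 on both arrays as deposited, was then at 0.01 and 0.008. The related phosphatases, also below 0 on both, were at −0.13 and 0.05, and the calcineurin list, above 0 on both, at −0.006 and 0.10. Several of these corrected medians lie within 0.01 of 0, where a sign carries little information. No list median reached 0.3 in size, and the median of the matched-gene differences was at most 0.10 in size in any list.

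**Figure D5:**
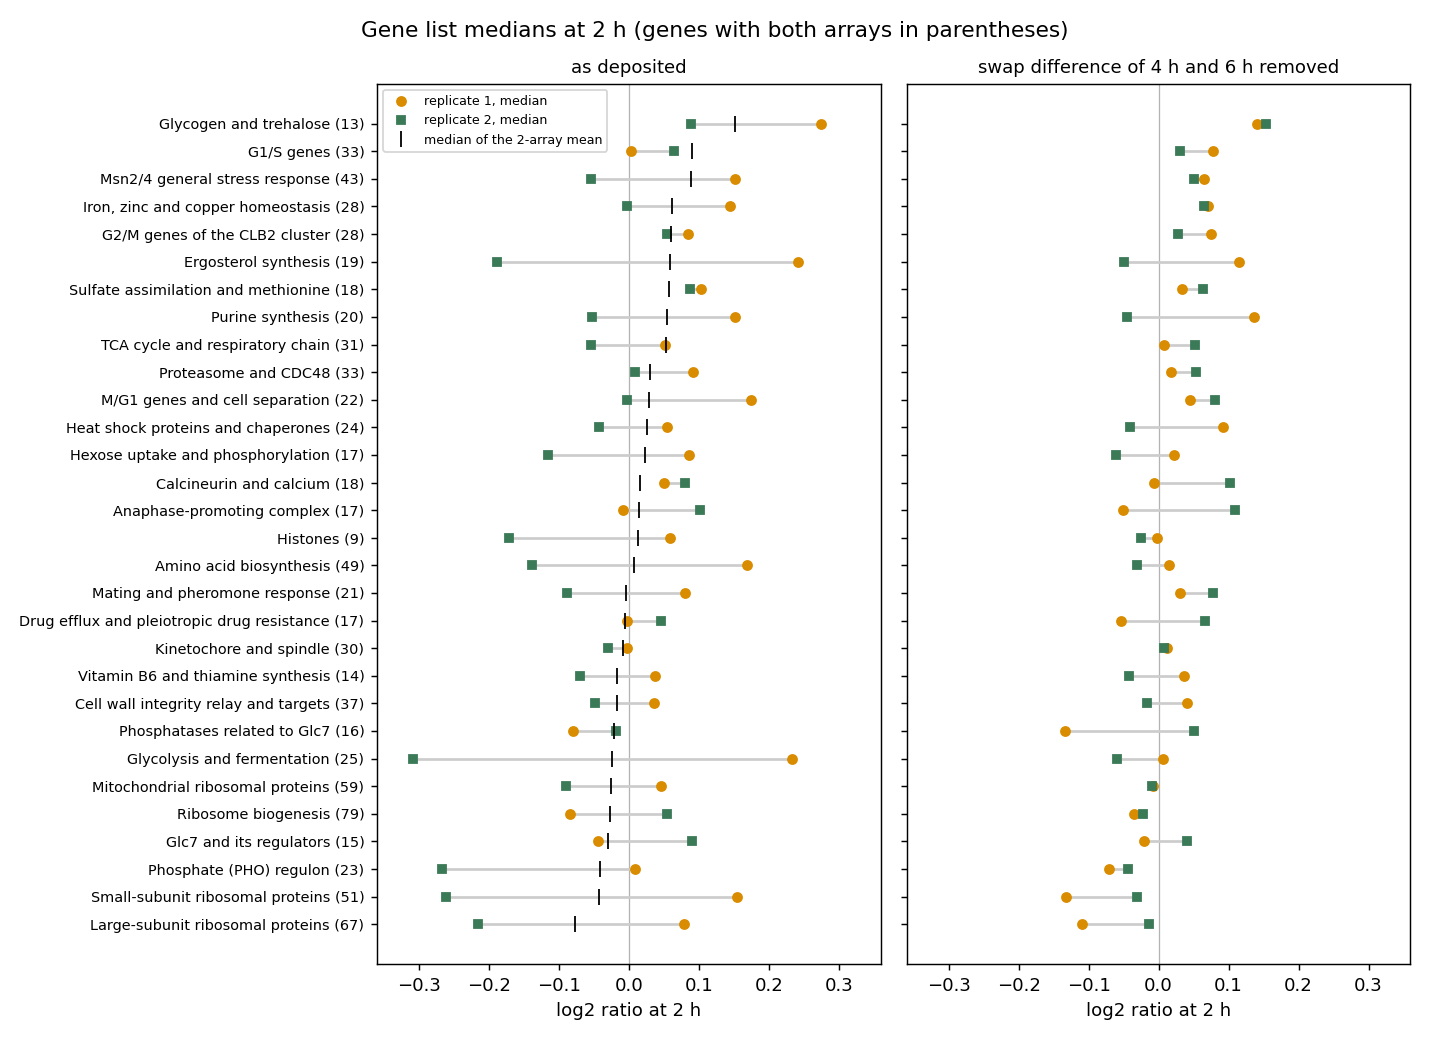
Median log2 ratio at 2 h of each of the 30 gene lists on replicate 1 (circles), on replicate 2 (squares) and of the 2-array mean (black ticks), as deposited on the left and with the mean swap difference of 4 h and 6 h (or of the 1 later time with both arrays) subtracted on the right, with the number of measured members in parentheses. The grey bars between the arrays cross 0 in 22 lists on the left, and the bar of glycogen and trehalose lies above 0 in both panels.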

How the data were processed

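The deposited values, made by the authors, were read as log2 ratios, with 1 value for each identifier on an array. Per the description in the labels, spots with a diameter below 120 µm or a fluorescence below 100 units were removed by the authors, and genes without a value on an array are empty cells. Per the labels' protocols, oligo(dT)-primed cDNA from total RNA was labelled with Cy3 and Cy5. The log base, any normalization, how repeated spots were combined and whether swapped arrays were turned are not given in the sources used here. Ratios were read as treated over untreated, since the first channel held treated RNA per the labels and the ratio of YPI1 was below 0 on every array.

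Of 6212 identifiers 5662 matched a gene of R64 by systematic name, and 550 kept their identifier. Genes with both 2 h arrays were averaged, with no test, since the swapped arrays hold 1 RNA pair. Calls were a mean of at least 1 in size with 1 sign, or both arrays past 0.3. Signal intensities were not analysed here. Means, medians and correlations were computed with pandas 2.3.3 and numpy 2.4.6 and the length curve (lowess of span 0.3 with 3 robust steps) with statsmodels 0.14.6, and the counting steps were tested on simulated data. Alternatives were centring, scaling, sign, length, matched genes, limits, missing values and single arrays.

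Genes and the 30 lists were chosen with earlier results of these data known. Named were YPI1, CDC26, their neighbours, GLC7, SDS22, the 12 highest and 12 lowest genes by the array value nearer 0, genes past 1 with opposite signs, and up to 4 members of a list or those whose role is described. The genes past 0.3 beyond these 12, and PHO11, LYS1, GID11, TBS1 and the genes measured on 1 array, were chosen after their values were seen.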

Additional observations from a re-analysis of the deposited data

Results flagged for a closer look

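For 42 of the named genes both arrays of 2 h lay on 1 side of 0 and both arrays of a later time on the other, which gives 44 differences between a later mean and the 2 h mean. None of these differences was tested, and each time has 1 RNA pair. Of all genes with 1 sign on both arrays at 2 h and at 4 h, 312 of 517 (60.3%) had opposite signs at the 2 times, and 365 of 1051 (34.7%) at 2 h and 6 h, so such turns are common in these arrays.

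Among genes above 0 at 2 h and below 0 at 4 h, the log2 difference of 4 h minus 2 h was −0.84 for FBP26, −0.83 for TCM62, −0.67 for APL6, −0.63 for both LAM5 and MDM10 and −0.62 for RRN6. It was −0.58 for GPI16, −0.57 for MCM2, −0.48 for FET5 and −0.45 for UFD2. These 10 belong to the 27 genes picked for high 2 h values. The same difference was −0.60 for LEU1, −0.56 for CDC16, −0.55 for ALK1, −0.40 for NPL4, −0.31 for SCD5, −0.29 for RCK2 and −0.28 for GLC7. It was −0.26 for PHO4 and for NTH1 and −0.25 for GPA1. On the other side YKR075C differed by 0.72, AAC1 by 0.47, NHP6A by 0.47, POL30 by 0.41, CLB5 by 0.25 and PPH3 by 0.18.

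Between 6 h and 2 h the differences of genes below 0 at 2 h were 1.26 for GSC2, 1.05 for GIP3, 0.92 for VTC3, 0.90 for IDH1, 0.87 for SIT4, 0.80 for MRP20 and 0.77 for ERG12. They were 0.64 for NBP1, 0.60 for YKR075C, 0.59 for PYC1, 0.54 for IDH2, 0.52 for SLA1 and 0.34 for PDR5. Genes above 0 at 2 h differed by −1.46 for LCB5, −1.25 for RPL6B, −0.78 for SPC19, −0.51 for PHO2 and −0.48 for NTH1.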

How the results depend on the processing

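YPI1 and CDC26 kept their sign and stayed past 2-fold under every alternative run but the turned sign. With the sign of the Cy3 array turned YPI1 was at 0.34 and CDC26 at 0.015, 1 gene, RTS2, was past 2-fold on the higher side, 263 genes were at or below −0.3 and 180 at or above 0.3, the arrays correlated with r = 0.40, and 18 lists lay above 0 on both arrays and 4 below. CDC26 was at −1.85 with the length curve removed and −1.84 relative to matched genes, moves larger than the SD of its arrays. The genes at or above 0.3 on both arrays numbered 27, against 14 with the length curve removed and 10 relative to matched genes, and with the curve removed 0 lists lay below 0 on both arrays. With the swap difference subtracted, an alternative chosen after seeing the data, r was −0.0699 (−0.194 without YPI1 and CDC26), 11 lists lay above 0 on both arrays and 6 below. With 1 array left out, genes past 2-fold numbered 3 to 19 on the lower side (19 without replicate 2) and 5 to 9 on the higher (9 without replicate 1), lists above 0 10 to 24 and lists below 0 6 to 20, YPI1 ran from −4.73 to −4.06 and CDC26 from −1.92 to −1.89. The limit on both arrays cannot be applied to 1 array, and neither can their correlation. A limit of 1.5-fold gave 4 genes lower, NDL1 and PAU11 besides YPI1 and CDC26, and 2 higher, LYS1 and GID11, GID11 at 0.13 and 1.29. TBS1 had a mean of −0.59 but values of −1.80 and 0.61. With a value on 1 array enough there were 7 lower and 5 higher, and a limit of 0.5 on both arrays left 2 lower, YPI1 and CDC26, and 0 higher. Centring and scaling turned the sign of 0 of 30 list medians, genes on all 6 arrays 1, the length curve 4, matched genes 5, the turned array 10, and leaving out replicate 1 or replicate 2 13 and 9. No paired analysis was possible because the results come from no test and the replicate numbers mark dye swaps of 1 RNA pair. Small differences at 2 h are limited by 1 RNA pair and by arrays that disagree for most genes, signal over background is unknown here, and doxycycline alone was not measured. The causes of these moves were not tested.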

Other observations

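Of the genes measured on 1 array of 2 h, 735 in number, 567 had a value on replicate 1 and 168 on replicate 2. The ratio was at least 1 in size in 10 of them, and 8 of these had no value on any later array. YJL211C had −2.65, NUP85, a nuclear pore subunit, 2.13, ATG16, of autophagosome formation, 1.28, POL4, a DNA repair polymerase, 1.23 and VPS41, of vacuolar fusion, 1.01 on replicate 2. CWH41, glucosidase I of the endoplasmic reticulum, had 1.29 on replicate 1. On the same array IMA3, an isomaltase, had −1.24, PDR1, a regulator of drug pumps, −1.22, RMA1, a putative folylpolyglutamate synthetase, −1.20 and SCC2, the cohesin loader, −1.18. No second array checks any of these values. RMA1 had 1.07 on 1 array of 6 h. POL4 had −0.22 and 0.30 at 4 h and 0.08 and −0.22 at 6 h. A further 1358 identifiers had no value at 2 h.

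By chromosome the median log2 ratio at 2 h ran from −0.03 on chromosome IX to 0.02 on chromosome VI, which carries YPI1 and CDC26. On single arrays the range was wider. Chromosome III had 0.17 on replicate 1 and −0.16 on replicate 2, and chromosome XI had −0.02 and 0.08. No chromosome stood apart in the mean.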
